A study of Mus musculus with 6 samples.

Results

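The genes described here encode killer lectin receptors, and there were 9 of them: Klra1, Klra3 and Klra7 of the Ly49 family, Klrc1, Klrc2 and Klrk1 of the NKG2 family, Klrd1, which encodes CD94, and the related genes Klre1 and Klrg1. They were chosen by name, with earlier results of these data known, from the 25654 genes with values in the deposited files. These files hold 26 genes with a Klr symbol, and all 9 were found. All 11 Klra genes were also added up, as were Klrc1, Klrc2 and Klrc3, because their sequences are alike. The cells were CD8 T cells of wild-type female C57BL/6 mice, taken from the spleen with a commercial isolation kit. The young group came from mice of 6 weeks and the aged group from mice of about 65 weeks, with 3 libraries each. In both groups the cells were stimulated for 2 days with plate-bound antibodies to TCR-β (3 µg/ml) and CD28 (1 µg/ml) together with interleukin 2 (10 ng/ml), then moved to a new plate for 5 days in interleukin 2 alone, 7 days in all. The libraries are named biological replicates, with nothing said of how many mice or cultures stand behind them, so the p-values measure the spread between these libraries, which may be technical.

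Killer lectin receptors are paired surface proteins with a C-type lectin-like domain, first known from natural killer (NK) cells and also carried by activated and memory CD8 T cells. Most Ly49 receptors bind classical MHC class I molecules and inhibit through phosphatases such as SHP-1. NKG2A pairs with CD94, binds the non-classical MHC molecule Qa-1 and inhibits, whereas NKG2D binds stress-induced ligands and activates through the adaptors DAP10 and DAP12. KLRG1, an inhibitory receptor for cadherins, marks differentiated effector T cells.

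The promoter sequences below are shown because the 3 Ly49 genes were higher in aged cells together, while Klrc1 and Klrk1, near neighbours on chromosome 6, differed with age in opposite directions. Each runs 5′ to 3′ on the gene's strand from 250 bases before to 50 bases after a RefSeq start site in GRCm38.p6, all on the minus strand. The windows are chr6:130386825-130387124 for Klra1, chr6:130337577-130337876 for Klra3, chr6:130233273-130233572 for the more upstream of 2 starts listed for Klra7, chr6:129678924-129679223 for Klrc1 and chr6:129623815-129624114 for Klrk1. Capitals mark matches, on either strand, to the cores bound by RUNX factors (TGTGGT), TCF and LEF factors (CTTTGA), T-box factors (GGTGTGA) and AP-1 (TGANTCA).
Klra1: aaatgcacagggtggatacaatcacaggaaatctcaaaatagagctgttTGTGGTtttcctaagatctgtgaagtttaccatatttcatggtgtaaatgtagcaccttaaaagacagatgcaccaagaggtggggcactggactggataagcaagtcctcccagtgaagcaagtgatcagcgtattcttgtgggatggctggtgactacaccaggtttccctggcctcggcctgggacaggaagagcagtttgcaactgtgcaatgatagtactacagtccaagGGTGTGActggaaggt
Klra3: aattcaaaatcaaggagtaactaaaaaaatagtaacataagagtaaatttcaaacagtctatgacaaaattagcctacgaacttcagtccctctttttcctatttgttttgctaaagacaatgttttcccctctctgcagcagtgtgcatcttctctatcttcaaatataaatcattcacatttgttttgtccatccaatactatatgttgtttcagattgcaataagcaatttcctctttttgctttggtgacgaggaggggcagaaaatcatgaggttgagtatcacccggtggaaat
Klra7: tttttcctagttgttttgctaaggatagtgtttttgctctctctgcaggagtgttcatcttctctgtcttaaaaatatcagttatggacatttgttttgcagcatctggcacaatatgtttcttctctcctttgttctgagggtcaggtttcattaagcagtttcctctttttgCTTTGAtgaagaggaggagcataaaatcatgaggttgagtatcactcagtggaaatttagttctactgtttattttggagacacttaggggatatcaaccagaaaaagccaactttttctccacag
Klrc1: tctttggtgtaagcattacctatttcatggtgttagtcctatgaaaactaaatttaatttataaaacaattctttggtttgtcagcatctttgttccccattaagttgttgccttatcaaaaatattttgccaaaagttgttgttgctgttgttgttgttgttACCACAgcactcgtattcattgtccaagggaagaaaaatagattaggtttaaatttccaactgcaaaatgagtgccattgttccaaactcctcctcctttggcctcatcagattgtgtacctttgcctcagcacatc
Klrk1: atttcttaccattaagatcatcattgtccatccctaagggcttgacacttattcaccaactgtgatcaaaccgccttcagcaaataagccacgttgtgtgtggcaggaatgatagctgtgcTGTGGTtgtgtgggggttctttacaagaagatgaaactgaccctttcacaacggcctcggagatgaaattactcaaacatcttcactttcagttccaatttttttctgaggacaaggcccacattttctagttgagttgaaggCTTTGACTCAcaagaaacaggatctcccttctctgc
The window of Klra7 was aligned with that of Klra3 over 207 bases, of which 176 (85.0%) were identical. Klra1 held a RUNX core at positions -201 to -196 from the start site, where 0 is the first base after the 250 upstream bases, and a T-box core at 34 to 40. Klra7 held a TCF core at -76 to -71, and the Klra3 window held none of the 4 motifs. In the GENCODE annotation Klra3 starts at 130337574, past the downstream end of this window, and no window at that start was searched. A RUNX core lay at -87 to -82 in Klrc1 and at -129 to -124 in Klrk1. Klrk1 also held a TCF core at 14 to 19, which overlapped an AP-1 core at 17 to 23. Of all 32851 promoter windows of this length, 16.8% held the RUNX core, 16% the TCF core, 3.98% the T-box core and 7.81% the AP-1 core, so such matches are common and do not show a bound site.

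Levels are in CPM, the reads of a gene scaled to a common library total. The libraries were made with a kit that reads the 3′ end of transcripts, so a level counts transcript ends and needs no division by length, though 3′ ends shared by several genes can lose reads. The libraries held 1952552 to 2785915 reads, so that a single read stood for 0.359 to 0.512 CPM. Where a library had 0 reads of a gene, counting error alone leaves room for 3 reads, which is 1.08 to 1.54 CPM. Cd8a, which encodes the defining coreceptor chain, had means of 270 ± 5.69 CPM (young) and 303 ± 52.2 CPM (aged), where ± is the SD over 3 libraries here and below. Of 4 CD4 T cell markers, Cd4 was at 0 to 0.384 CPM, Foxp3 at 0 to 3.07 CPM and Cd40lg at 0.359 to 2.35 CPM. Zbtb7b was lower in aged cells (20.8 ± 3.40 and 12.7 ± 3.24 CPM). Of 7 CD8 T cell markers, 4 were lower in aged cells (Cd8b1, Cd3e, Cd3d and Cd3g, by 1.26-fold to 1.39-fold) and Thy1 was higher, with summed levels of 2863 to 2971 CPM in young and 2556 to 2883 CPM in aged libraries. Of 5 B cell markers, 4 had no read and Cd79b was lower in aged cells (6.34 ± 3.74 and 0.982 ± 0.852 CPM). Of 7 myeloid markers 4 were tested, and Itgam and Cd68 were lower in aged cells. These marker calls are by limma, and DESeq2 did not call Zbtb7b, Itgam or Cd68. By edgeR alone Csf1r was higher, on reads of Aged replicate 3 only. Over all tested genes limma called 16.2% higher and 12.5% lower, at the threshold given below.

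The comparison asks how these receptor genes differ with the age of the mouse once CD8 T cells have been activated. In aged cells 6 of the 9 genes were higher (Klra1, Klra3, Klra7, Klre1, Klrg1 and Klrc1), Klrd1 and Klrk1 were lower, and Klrc2 was not called. The threshold was an adjusted p of 0.05 (Benjamini-Hochberg) in limma, fitted on log2(CPM + 1) to all 10511 tested genes, of which 16.2% were called higher, 12.5% lower and 28.7% in either direction. The same 6 genes were called higher and the same 2 lower by edgeR, DESeq2 and limma-voom on recovered reads. Over all tested genes edgeR called 28.5% in either direction (13.7% higher, 14.8% lower), DESeq2 18.6% (8.98% higher, 9.65% lower) and limma-voom 28.1%. Below, called means called by limma where no other tool is named. All 9 passed the filter of a mean of at least 1 CPM. The median log2 fold change of the 9 genes was 1.13, against 0.77 over the 13 tested Klr genes, these 9 included, and 0.03 over all tested genes. Of the 4 tested Klr genes outside the list, limma called only Klra2. The 9 genes were chosen with earlier results of these data known, so their counts and median are a description. In 8 of the 9 genes the young and aged libraries did not overlap, as in 40.9% of all tested genes. In bulk RNA a larger share of cells with a receptor and more RNA per cell cannot be told apart.

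**Figure D1:**
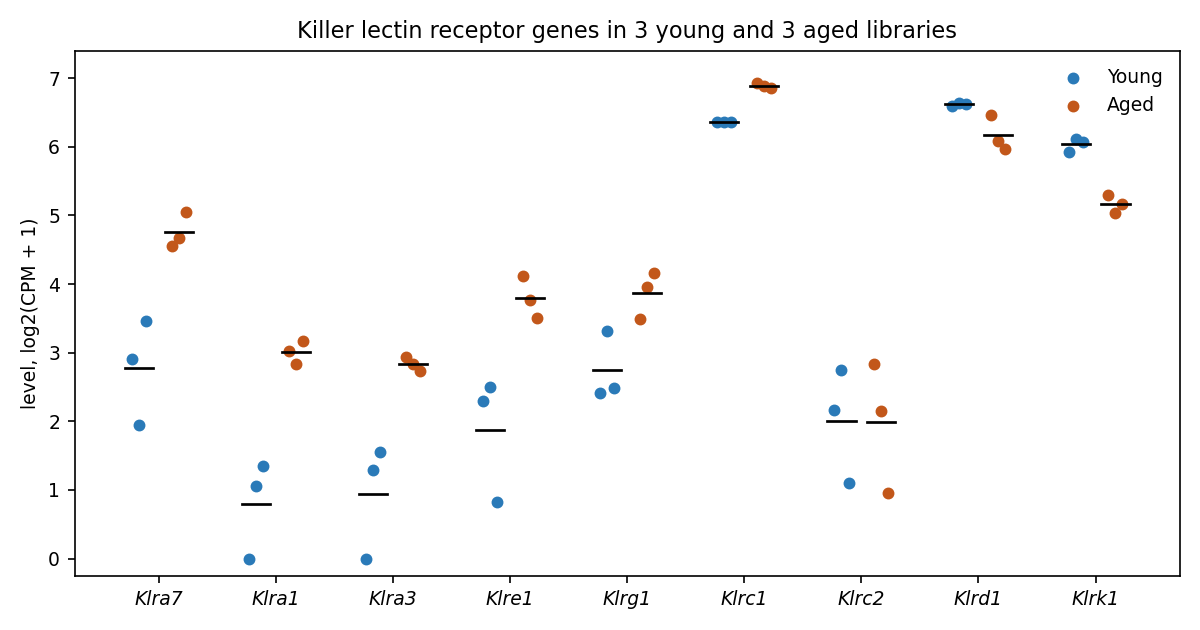
Level of each of the 9 genes in log2(CPM + 1), one point per library (blue, 3 young; orange, 3 aged), with a line at the group mean. The groups do not overlap except in Klrc2; the 3 most abundant genes are Klrc1, Klrd1 and Klrk1, and the Ly49 genes are low in young cells.

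All 3 Ly49 genes were over 4-fold higher in aged cells by mean CPM. Klra7 encodes Ly49G, an inhibitory receptor, and lies at chromosome 6, 130218605 to 130233322 (GRCm38, minus strand; ENSMUSG00000067599). It was at 6.52, 2.87 and 9.99 CPM in Young replicates 1 to 3 and at 22.5, 24.5 and 32 CPM in Aged replicates 1 to 3. Every aged library was above every young one. The group means of 6.46 ± 3.56 and 26.4 ± 4.99 CPM differed 4.08-fold, a log2 fold change of 1.98 ± 0.30 (limma adjusted p = 5.09e-05). After a log2 fold change, ± gives the SE. The young values rest on 8 to 26 reads, and the log2 fold change was 2.16 with a pseudocount of 0.1 and 1.49 with a pseudocount of 5.

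Klra1 (chromosome 6, 130363917 to 130386874, minus strand; ENSMUSG00000079853) encodes Ly49A, the inhibitory receptor first described in this family. Its levels were 0, 1.08 and 1.54 CPM in the young libraries and 7.17, 6.13 and 8.0 CPM in the aged ones. The groups did not overlap, but the young values stand for 0 to 4 reads, so the fold of 8.15 between the means of 0.871 ± 0.789 and 7.10 ± 0.935 CPM is uncertain in size. The log2 fold change was 2.21 ± 0.40 (limma adjusted p = 0.00031), and it was 3.63 with a pseudocount of 0.1 and 1.05 with a pseudocount of 5.

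Klra3 (chromosome 6, 130323289 to 130337574, minus strand; ENSMUSG00000067591) encodes Ly49C, an inhibitory receptor for H-2K molecules. It was at 0, 1.44 and 1.92 CPM in young and at 6.66, 6.13 and 5.65 CPM in aged libraries. Again all aged values were higher, and the young values rest on 0 to 5 reads. The means were 1.12 ± 0.999 and 6.15 ± 0.505 CPM, and the log2 fold change of 1.89 ± 0.41 (limma adjusted p = 0.00181) was 3.20 with a pseudocount of 0.1 and 0.88 with a pseudocount of 5.

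Of the other 8 Ly49 genes, 2 passed the filter. Klra5, which encodes the inhibitory Ly49E, was at 5.65, 2.87 and 6.53 CPM in young and 10.8, 9.20 and 7.06 CPM in aged libraries and was not called (log2 fold change 0.77, limma adjusted p = 0.0699). Klra2, which encodes Ly49B, was at 1.36 ± 1.14 and 3.87 ± 0.817 CPM and was called higher by limma (adjusted p = 0.0454) and limma-voom but by neither edgeR (0.078) nor DESeq2 (0.215). Klra6 had no read in young cells and 1.02 to 1.53 CPM in aged cells, on 2 to 4 reads a library. The aged mean was 3.39 times the limit of 3 reads over the young group (0.39 CPM), a fold of uncertain size. Klra9 also had no read in young cells and was at 4.10, 0.767 and 0.941 CPM in the aged libraries. Klra4 and Klra8, which encode the activating receptors Ly49D and Ly49H, and Klra10 had no counted read in any library, so none of these 3 was detected at this depth. Of the 50-base words in the last 300 bases of transcripts, 19.1% for Klra8 and 59.8% for Klra10 occurred in another gene. Reads of both may therefore have been lost. Klra17 had reads in 1 young library alone, at 1.15 CPM.

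Ly49 genes share stretches of sequence, which could have moved reads between copies. In the last 300 bases of annotated transcripts, 39.0% of the 50-base words of Klra3 occurred in another gene, most often Klra9, as did 27.0% of those of Klra7, all in the pseudogene Klra13-ps, and 10.2% of those of Klra1, in Klra4. The sum over the 11 Klra genes does not depend on how counted reads were divided among them. Reads counted to a pseudogene would be missing from it, as would reads left out for matching several copies. How such reads were treated is not given. The sum was 14.8, 9.33 and 21.5 CPM in Young replicates 1 to 3 and 55.3, 52.1 and 59.8 CPM in Aged replicates 1 to 3. The aged libraries lay together and far above the young, with means of 15.2 ± 6.10 and 55.7 ± 3.83 CPM, 3.66-fold higher, and a log2 fold change of 1.88 ± 0.21 (limma adjusted p = 1.94e-06). Klra7 made up 40.4% ± 8.45 of these reads in young and 47.1% ± 6.4 in aged libraries (exact two-sided permutation p = 0.4). Without Klra7, a sum added after seeing the data, the log2 fold change was 1.67 (limma adjusted p = 1.01e-05).

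NK cells carry the same receptors, so their markers are given beside the Ly49 genes. Of 14 markers of NK cells, 9 were tested. Of these limma called Fcer1g higher and 0 lower (16.2% and 12.5% over all tested genes), with 3 lower at an unadjusted p under 0.05. DESeq2 called none in either direction, while edgeR and limma-voom called Klrb1c and Khdc1a lower. The summed level of the 14 markers was 735 to 826 CPM in young and 685 to 969 CPM in aged libraries, most of it Prf1, the perforin gene that CD8 T cells also express. Ncr1, which encodes the NK receptor NKp46, was at 0 to 0.384 CPM in young cells and had no read in aged cells, and the activating Ly49 genes were at 0 as given above. Klrb1c, which encodes the NK1.1 antigen, was at 26.5, 21.9 and 19.98 CPM in young and 17.4, 11.9 and 17.9 CPM in aged libraries. It was not called by limma (log2 fold change -0.52, adjusted p = 0.0599) or DESeq2 (adjusted p = 0.152), though edgeR (adjusted p = 0.0347) and limma-voom called it lower. Klrb1c, Klra4, Klra8, Klra9 and Klri2 of this marker list are themselves killer receptor genes. Of 8 markers of innate-like and unconventional T cells 3 were tested, with Fcer1g again the one called higher by limma and edgeR and 0 called by DESeq2 and limma-voom, and their summed level was 53.5 to 58.8 CPM in young and 55.6 to 93.7 CPM in aged libraries. The part of such cells in the Ly49 levels was not tested.

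Klre1 and Klrg1 were also higher. Klre1 (chromosome 6, 129577905 to 129585827, plus strand; ENSMUSG00000050241) encodes a receptor that pairs with KLRI1 or KLRI2. It was at 3.91, 4.67 and 0.768 CPM in young and 16.4, 12.7 and 10.4 CPM in aged libraries, 4.21-fold higher by the means of 3.12 ± 2.07 and 13.1 ± 3.05 CPM. The groups were apart, with a log2 fold change of 1.92 ± 0.38 (limma adjusted p = 0.000646). The young values rest on 2 to 13 reads, and the log2 fold change was 2.35 with a pseudocount of 0.1 and 1.18 with a pseudocount of 5. Klre1 shared no 50-base word at its 3′ end with another gene. Of its partners, Klri1 had no read in any library and Klri2 was at 0 to 0.384 CPM in young and 0.471 to 1.54 CPM in aged cells, under the filter.

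Klrg1 (chromosome 6, 122270596 to 122282882, minus strand; ENSMUSG00000030114) lies several megabases from the other 8 genes. It was at 4.35, 8.97 and 4.61 CPM in young and 10.2, 14.6 and 16.9 CPM in aged libraries. The highest young library, Young replicate 2, came close to the lowest aged one, Aged replicate 1, without reaching it. The means were 5.98 ± 2.60 and 13.9 ± 3.40 CPM, 2.33-fold higher, with a log2 fold change of 1.13 ± 0.29 (limma adjusted p = 0.00588).

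Klrc1, Klrd1 and Klrk1, the 3 most abundant of the 9 genes in both groups, encode NKG2 receptors and CD94, and in aged cells Klrc1 was higher and both Klrd1 and Klrk1 were lower. Klrc1 (chromosome 6, 129666015 to 129678973, minus strand; ENSMUSG00000030167) encodes the inhibitory NKG2A. It was at 80.9, 81.1 and 81.1 CPM in young and 121, 118 and 115 CPM in aged libraries, a 1.45-fold difference of groups that lay well apart. Its log2 fold change was 0.53 ± 0.09 (limma adjusted p = 0.000146). The SD of 0.139 CPM between the young libraries is below the 5.64 CPM that counting 186 to 226 reads would give on its own, so it says little of how alike the young samples were.

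Klrc2 (chromosome 6, 129647496 to 129660689, minus strand; ENSMUSG00000052736) encodes NKG2C, the activating partner of CD94. It was at 3.48, 5.74 and 1.15 CPM in young and 6.15, 3.45 and 0.941 CPM in aged libraries. The groups overlapped fully, on 2 to 16 reads a library, and the log2 fold change was -0.02 with a 95% interval of -1.03 to 0.98 (limma adjusted p = 0.978), so this depth leaves room for a change of about 2-fold either way. Of the 50-base words at the 3′ end of Klrc1, 60.9% occurred in another gene, chiefly Klrc2, and Klrc3 had no read. The 3 genes summed were at 84.3, 86.9 and 82.2 CPM in young and 127, 121 and 116 CPM in aged libraries, a log2 fold change of 0.52 ± 0.09 (limma adjusted p = 0.000219). Klrc1 held 96.0% ± 2.61 of these reads in young and 97.2% ± 2.01 in aged libraries (exact two-sided permutation p = 0.6).

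Klrd1 (chromosome 6, 129591782 to 129598775, plus strand; ENSMUSG00000030165) encodes CD94, without which NKG2A and NKG2C do not reach the cell surface. It was at 95.2, 98.4 and 98.0 CPM in young libraries and at 87.1, 67.1 and 61.7 CPM in aged ones. All aged libraries were lower, Aged replicate 1 least so, and the means of 97.2 ± 1.72 and 71.9 ± 13.4 CPM differed 1.35-fold. The log2 fold change was -0.44 ± 0.12 (limma adjusted p = 0.00669).

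Klrk1 (chromosome 6, 129610323 to 129623864, minus strand; ENSMUSG00000030149) encodes the activating receptor NKG2D. It was at 59.6, 68.6 and 66.1 CPM in young and at 38.4, 31.8 and 34.8 CPM in aged libraries. The groups lay well apart, with means of 64.7 ± 4.65 and 35.0 ± 3.30 CPM, 1.85-fold lower, and a log2 fold change of -0.87 ± 0.12 (limma adjusted p = 3e-05). Neither Klrd1 nor Klrk1 shared a 50-base word at its 3′ end with another gene. The CD3 genes were also lower in aged cells, by 1.33-fold to 1.39-fold, and the part of a general difference of T cell transcripts in the lower Klrd1 and Klrk1 was not tested.

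**Figure D2:**
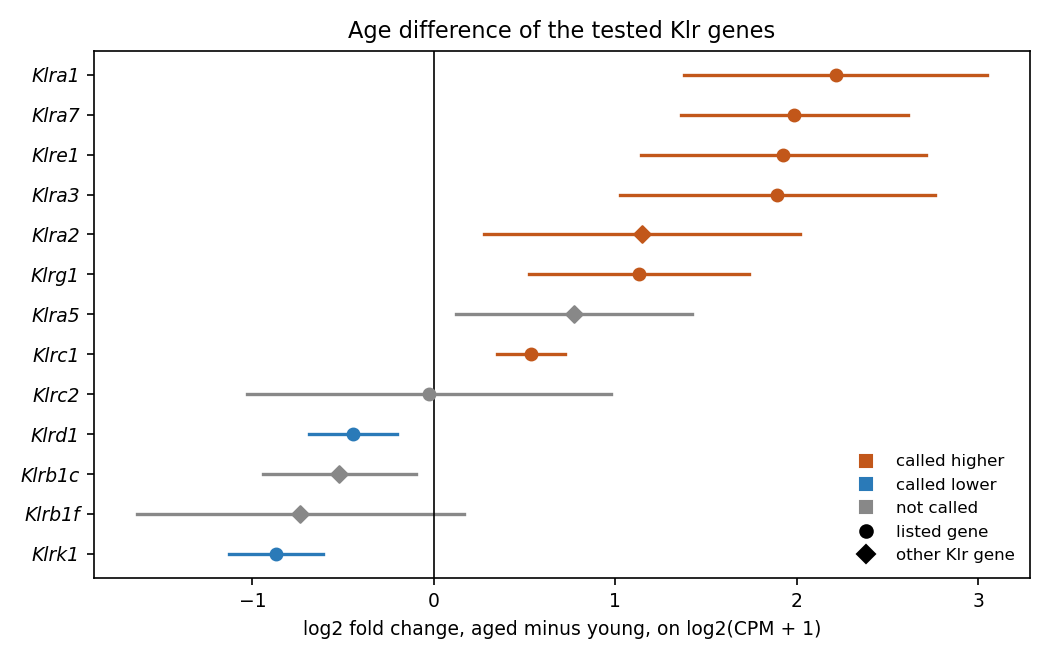
Log2 fold change (aged minus young, on log2(CPM + 1)) with its 95% interval in limma for the 13 tested Klr genes; circles are the 9 listed genes and diamonds the other 4, coloured by call. The intervals of the 3 listed Ly49 genes, Klre1, Klrg1 and Klrc1 lie above 0, and those of Klrd1 and Klrk1 below it.

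The order of the levels, as counted, also differed between the groups. Klrc1 may have lost reads through its shared 3′ end, so its place beside Klrd1 is uncertain. In young cells Klrd1 came first, then Klrc1 and Klrk1, with ranges that overlapped neither each other nor that of Klra7 below them. In aged cells Klrc1 came first, then Klrd1, then Klrk1, again with ranges apart, but the range of Klrk1 (31.8 to 38.4 CPM) now overlapped that of Klra7 (22.5 to 32 CPM). Klra7 lay above Klrg1 without overlap, and Klre1 above Klra1. Klrg1 and Klre1 were not separated by their ranges in aged cells, nor were Klra1 and Klra3, nor Klra3 and Klrc2. In young cells the 6 genes from Klra7 down to Klra1 all overlapped their neighbours in the order.

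Ratios within a library do not depend on scaling between libraries. The summed Klrc genes were at 1.42, 1.27 and 1.24 times the level of Klrk1 in Young replicates 1 to 3 and at 3.31, 3.81 and 3.32 times in Aged replicates 1 to 3. Every aged ratio was higher, by 1.41 in mean log2 ratio (0.39 ± 0.10 in young and 1.80 ± 0.12 in aged). Against Klrd1, the partner of their products, the summed Klrc genes were at 0.886, 0.883 and 0.839 in young and 1.46, 1.81 and 1.88 in aged libraries. As counted, they thus went from below to above the level of Klrd1, by 0.97 in mean log2 ratio. Klrc reads may have been lost through shared 3′ ends, so the crossing of levels is less certain than the difference in ratio. The ratio of Klrk1 to Hcst, which encodes DAP10, the adaptor of NKG2D, was 0.62, 0.61 and 0.741 in young and 0.547, 0.407 and 0.583 in aged libraries. For each of these 3 ratios the exact two-sided permutation p was 0.1, the smallest that 3 against 3 libraries allow, and 0.1 after Benjamini-Hochberg adjustment over the 3. For both ratios with the summed Klrc genes this p was fixed in advance, because their genes had already separated in opposite directions. The ratio to Hcst was picked after its values were seen. These p-values therefore add nothing to the gene results.

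**Figure D3:**
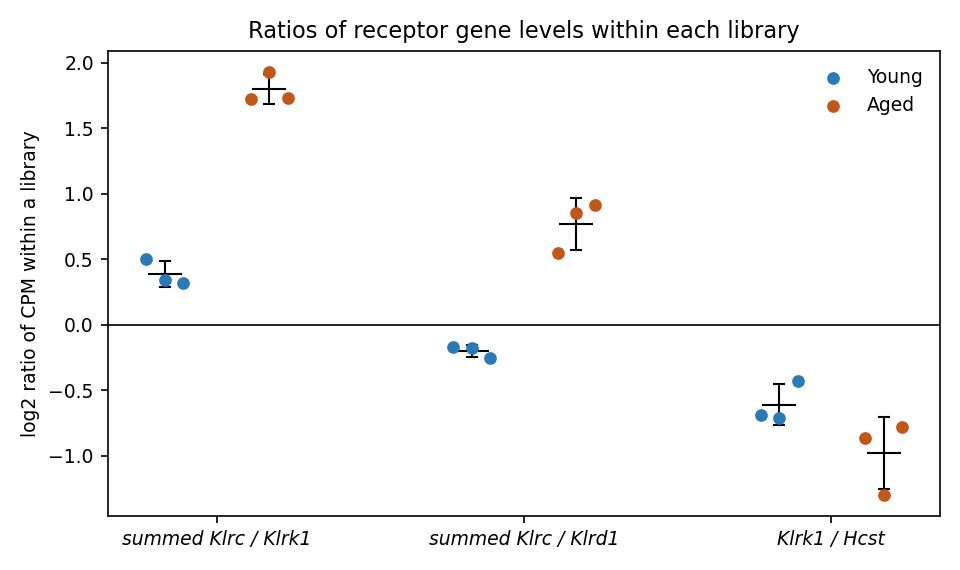
Log2 ratio of CPM within each library (blue, young; orange, aged), with the mean and SD of 3 libraries per group. Both ratios with the summed Klrc genes are higher in all aged than in all young libraries, and the ratio of Klrk1 to Hcst is lower.

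Of the 9 genes, 8 lie in the natural killer gene complex, and neighbours there differed with age in opposite directions. Along chromosome 6, Klre1 (higher), Klrd1 (lower), Klrk1 (lower), Klrc2 (not called) and Klrc1 (higher) follow each other within 101 kb. Klre1 and Klrd1, both on the plus strand, are 5.96 kb apart. From 128609227 to 131247362, that is from Klrb1a to Klra2, the files list 51 genes, of which 18 were tested. Of these 6 were higher and 3 lower in limma (5 and 4 in edgeR, 5 and 2 in DESeq2), against 16.2% and 12.5% of all tested genes in limma. Of these 9 limma calls, 7 were for the genes described above. The other calls were Klra2 and Clec2i, which encodes a ligand of KLRB1-type receptors and was at 14.9 ± 1.62 and 9.24 ± 2.69 CPM (limma adjusted p = 0.048, not called by DESeq2 at 0.144).

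**Figure D4:**
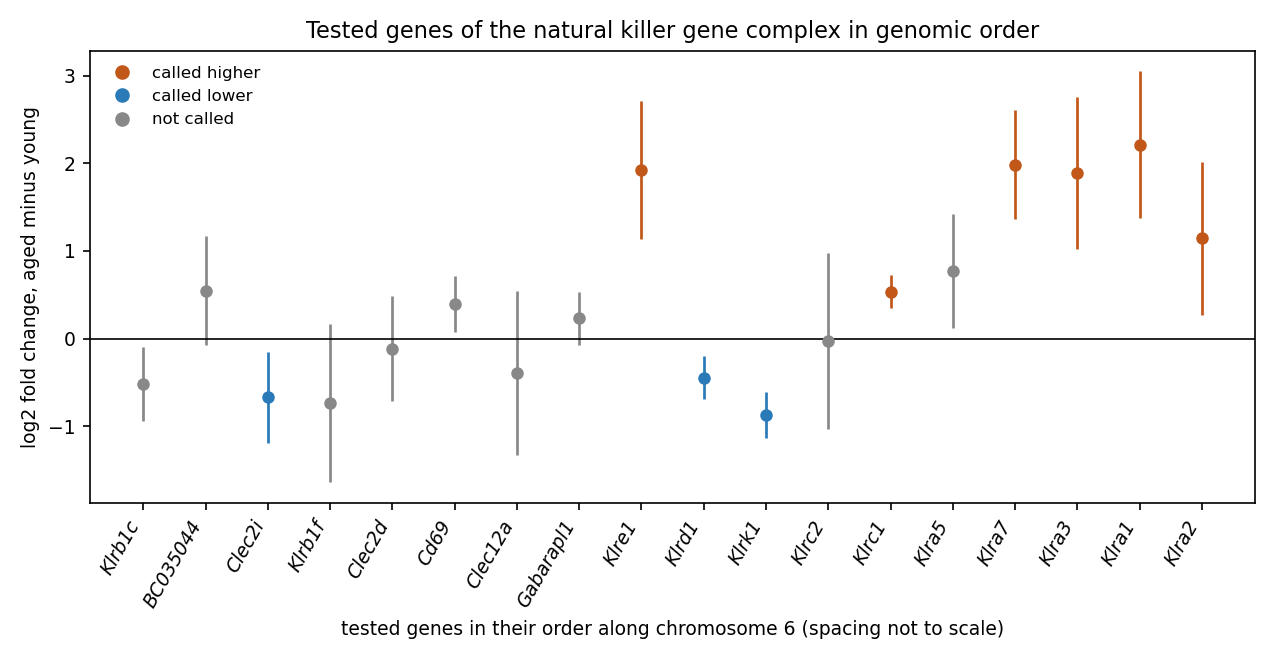
Log2 fold change (aged minus young) with its 95% interval in limma for the 18 tested genes between Klrb1a and Klra2, in their order along chromosome 6 with even spacing, coloured by call. The genes called lower are Clec2i, Klrd1 and Klrk1, the last 2 next to each other and between Klre1 and Klrc1, which were called higher.

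Adaptors and phosphatases through which these receptors signal went both ways. Of 19 tested genes, 4 were higher and 5 lower in limma (median log2 fold change -0.06), against 16.2% and 12.5% of all tested genes. DESeq2 called 1 higher (Lat2) and 4 lower (Hcst, Ptpn6, Fyn and Pik3r1). Hcst was at 96.1, 112 and 89.1 CPM in young and 70.2, 78.2 and 59.8 CPM in aged libraries, without overlap and 1.43-fold lower (limma adjusted p = 0.00236). Ptpn6, which encodes the inhibitory phosphatase SHP-1, was 1.52-fold lower, at 66.8 ± 5.14 and 43.9 ± 10.2 CPM. Tyrobp, which encodes DAP12, was at 3.99 ± 1.61 and 2.70 ± 0.36 CPM and was not called. Fcer1g, which encodes another signalling chain, was at 50.1 ± 2.32 and 71.9 ± 21.1 CPM and was called higher, though Aged replicate 2, at 48.3 CPM, lay within the young range and DESeq2 gave an adjusted p of 0.088. Lck, a kinase that starts receptor signalling and the most abundant gene of this list, was at 326 ± 7.32 and 313 ± 18.8 CPM and was not called.

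Among genes of ligands, 3 of 9 tested MHC class I genes were lower in limma and 0 higher, also at an unadjusted p under 0.05 or in the other 3 tools. Over all tested genes limma called 12.5% lower and 16.2% higher. B2m, the light chain of class I molecules, was lower, at 5685 ± 38.7 in young and 4358 ± 159 CPM in aged libraries, and H2-D1, which encodes a ligand of Ly49 receptors, was 1.16-fold lower. H2-K1 was not called by limma or DESeq2 but was called lower by edgeR (adjusted p = 0.0478) and limma-voom. H2-T23, the gene of Qa-1, was not called by any of these tools, at 16.1, 15.1 and 13.4 CPM in young and 6.66, 18.0 and 8.94 CPM in aged libraries. Ulbp1, a gene of an NKG2D ligand, was at 58.0 ± 3.43 and 55.4 ± 5.45 CPM, and Cdh1, which encodes the KLRG1 ligand E-cadherin, at 68.9 ± 16.3 and 59.4 ± 12.5 CPM. Neither was called, and limma called 0 of the 3 tested ligand genes of NKG2D and KLRG1, as did edgeR, DESeq2 and limma-voom and as at an unadjusted limma p under 0.05.

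Among 20 transcription factors reported to act on killer receptor genes, the median log2 fold change was -0.31. In limma 3 were higher (Eomes, Id2 and Cbfb) and 8 lower, against 16.2% and 12.5% of all tested genes. The same 8 were called lower by edgeR, DESeq2 and limma-voom, but the higher calls numbered 2 in edgeR and limma-voom, without Id2, and 0 in DESeq2. Runx3, a factor of cytotoxic T cells, was at 613, 559 and 607 CPM in young and 442, 450 and 420 CPM in aged libraries, 1.36-fold lower (limma adjusted p = 2.46e-05). Bcl11b, which holds back NK receptor genes in T cells, was 1.24-fold lower, at 332 ± 15.4 and 267 ± 2.68 CPM. The largest fold of the 8 was that of Tcf7, at 10.8 ± 1.93 and 1.04 ± 1.20 CPM, with few reads in aged cells. Bach2 was 2.46-fold, Prdm1 2.06-fold, Lef1 1.63-fold, Irf2 1.43-fold and Nfil3 1.26-fold lower. Whether these factors act on the receptor genes here was not tested. Eomes, a T-box factor of memory and NK cells, was higher in every aged than in every young library, at 152 ± 14.7 and 196 ± 29.6 CPM (limma adjusted p = 0.0112, DESeq2 0.0548). Tbx21, which encodes T-bet, was at 40.0 ± 6.74 and 40.5 ± 4.89 CPM and was not called. Of 11 tested cytokine receptor genes 4 were lower in limma (12.5% over all tested genes), 5 in edgeR, 4 in DESeq2 and 6 in limma-voom. Of these 11 genes, 0 were higher in any of the tools or at an unadjusted limma p under 0.05. Of the 4 lower in limma, Il18r1 had the largest fold, at 189 ± 11.8 and 34.5 ± 15.0 CPM (limma adjusted p = 2.83e-08). Il2rb, the chain shared by the interleukin 2 and interleukin 15 receptors, was at 1035 ± 12.3 and 1038 ± 46.5 CPM and was not called. Of 11 other receptor genes shared by NK and T cells, Cd160 and Slamf6 were lower and Lilrb4a was higher in limma and DESeq2. Over all tested genes limma called 12.5% lower and 16.2% higher. Slamf7 and Cd96 were also called lower by edgeR and limma-voom.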

How the data were processed

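RNA was measured in CD8 T cells of young and aged mice, 3 libraries each, made with the QuantSeq 3′ kit, per the labels' protocols. The authors deposited 1 value per gene and library in CPM, on the build GRCm38 (mm10) that the submitters' processing notes name. What aligner, counter, strand setting, annotation and treatment of multiply mapped reads they used is not given in the sources used here. Of the values, 100% were whole multiples of 1 read within 0.001 reads, so reads were recovered. The file of Aged replicate 2 names its column as replicate 3; the sample record was followed, and the values of the 2 files differ. Of 25655 identifiers 1 was blank, and symbols were found for 25599 (55 had none).

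Limma 3.58.1 (R 4.3.3, intensity trend, two-sided) was fitted on log2(CPM + 1) for genes whose mean reached 1 CPM. Folds without the log2 scale are ratios of mean CPM. Positions are from GENCODE M21, and promoters from RefSeq GRCm38.p6, where 7 of the 9 genes had an entry. The fit was tested on simulated data, with changes set in genes of at least 5 CPM. The same dispersion was assumed for every gene and was not estimated from these data. The fit recovered 20.9% of 1.5-fold, 77.6% of 2-fold and 100% of 4-fold changes. A gene that was not called may thus still differ by folds of this smaller size. For genes under 5 CPM, such as Klrc2, recovery was not tested. Alternatives used edgeR 4.0.16, DESeq2 1.42.0 and, added after seeing the data, limma-voom on the recovered reads and the Klra sum without Klra7, other scalings, pseudocounts, filters, the replicate block and leaving out each library. Same-numbered libraries did not deviate together (r = 0.00025 to 0.0209). The genes, lists, motifs and ratios were chosen with earlier results of these data known. From each list at most 6 genes by mean CPM were to be named. Klra4, Klra6, Klra8, Klra10, Klra17, Hcst, Ptpn6, Tyrobp, Fcer1g, Lat2, Tbx21, Cbfb, Slamf6, Ncr1, Clec2i and the ratios with Klrd1 and Hcst were picked after their values were seen. So were Tcf7, Lef1, Bach2, Prdm1, Irf2 and Il18r1. One gene found by likeness of pattern is not reported here.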

Additional observations from a re-analysis of the deposited data

How the results depend on the processing

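The calls of the 9 genes kept their direction and their side of the threshold in the 17 alternatives, except that a mean of at least 5 CPM left out Klra1, Klra3 and Klrc2, so that 4 genes were called higher there and 2 lower. Klrc2, which was never called, changed sign when single libraries were left out, with log2 fold changes of -0.48 to 0.49. The log2 fold change of the summed Klra genes was 1.59 to 2.15 when each library was left out, and that of the summed Klrc genes 0.48 to 0.55. Leaving out a library gave 1.34 to 1.47 for the log2 ratio of summed Klrc to Klrk1, 0.90 to 1.08 for summed Klrc to Klrd1, and -0.47 to -0.21 for Klrk1 to Hcst. The replicate block, for numbers that share only a name, changed no call (summed Klra 1.88, summed Klrc 0.52, ratio of summed Klrc to Klrk1 1.41; 1725 of all genes higher and 1336 lower). Over all genes 1701 were called higher and 1313 lower. DESeq2 called 944 higher and 1014 lower. With TMM scaling the split was 1432 and 1549, with RLE 1451 and 1532, and with edgeR 1443 and 1557. Leaving out a library gave 1322 to 1582 higher and 1011 to 1207 lower. Genes with under about 10 reads in a library, such as Klra1, Klra3, Klre1 and Klrc2 in young cells and Klra7 in Young replicate 2, have folds of uncertain size.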

Other observations

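The genes whose levels over the 6 libraries were most like those of the receptor genes were found among 7136 genes whose mean reached 10 CPM, by Pearson correlation of log2(CPM + 1), as a description without a test. The libraries share only 2 groups, so any gene with a clear age difference can score high. For the summed Klra genes these were Stk39, a kinase of the stress response (r = 0.999), Top2a, the topoisomerase of dividing cells (r = 0.998), and the linker histone gene Hist1h1e (r = 0.998). Top2a had means of 968 ± 115 (young) and 1430 ± 35.3 CPM (aged). For the summed Klrc genes they were Stub1, Ankrd52 and Smc6 (r = 0.994 to 0.996). For Klrk1 they included Rplp1, a ribosomal protein gene (r = 0.9995), and Mllt3, a chromatin reader gene (r = 0.998), and Mllt3 had means of 74.9 ± 7.03 (young) and 39.8 ± 4.62 CPM (aged). For Klrg1 they were Psmb2, Msmo1 and Fibp (r = 0.985 to 0.992).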
